A study of Mus musculus with 12 samples.

Results

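The 9 genes described here encode enzymes and enzyme subunits of the tricarboxylic acid (TCA) cycle: *Cs*, *Idh3a*, *Idh3b*, *Idh3g*, *Ogdh*, *Sucla2*, *Suclg1*, *Fh1* and *Mdh2*. They were taken by name from the 22180 mouse genes that the array table paired with a single symbol, and each was measured by 1 transcript cluster, the set of probes that an Affymetrix array assigns to 1 transcript unit. The study asked how inhibition of mTOR, a kinase that couples nutrient and growth signals to cell metabolism, alters gene expression when regulatory T cells are activated. Central regulatory T (cTreg) cells, Foxp3-YFP+ CD4+ cells with high CD62L and low CD44, were sorted from spleen and lymph nodes of Foxp3-YFP+ transgenic mice backcrossed on C57BL/6. RNA from 4 groups of 3 arrays each, stated to be biological triplicates, was hybridised to 12 arrays. The Torin 1 group was activated for 20 h with antibodies to CD3 and CD28 in the presence of recombinant IL-2 and 50 nM Torin 1, the PP242 group was activated in the same way with 500 nM PP242, and the DMSO group with the vehicle. The unstimulated group was taken at 0 h and also carries a DMSO label. Torin 1 and PP242 are ATP-competitive inhibitors of the mTOR kinase. All cells carry the Foxp3 reporter, the mice of the study were generally a few weeks old, the number of mice behind each array was not given in the sources used here, and cells kept in culture for 20 h without antibodies were not among the groups, so that activation and 20 h of culture with IL-2 cannot be told apart.

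The TCA cycle runs in the mitochondrial matrix, where it oxidises the acetyl group of acetyl-CoA to carbon dioxide and passes electrons to the respiratory chain as NADH and FADH2. Its intermediates also leave the cycle: citrate for lipid synthesis, oxoglutarate and oxaloacetate for amino acids. T cells that leave rest and begin to grow raise their mitochondrial mass and metabolism. The member genes are all encoded in the nucleus, and their proteins are imported into mitochondria.

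The values are log2 expression, so that a difference of 1 is a 2-fold change, and a gene was called where its adjusted p was below 0.05 in limma, a linear model fitted over all genes and all 12 arrays. Medians of the arrays lay between 4.95 and 5.08, and the lowest value of any member on any array was 5.99. The sort was checked on its markers: all 12 regulatory T-cell markers listed, *Foxp3* and *Il2ra* among them, lay above the median of all clusters in every group. Of these markers 3 were called higher and 5 lower in DMSO than in unstimulated cells, beside 11.8% and 12.1% of all genes. Against DMSO, 1 was called higher with Torin 1 and 4 with PP242, beside 3.33% and 7.38% of all genes. *Foxp3* averaged 11.64 with Torin 1, 11.65 with PP242, 11.35 with DMSO and 11.96 in unstimulated cells. Among markers of other cells, the B-cell list had 2 or 3 of 5 genes above that median in each group, the myeloid list 3 or 4 of 9, and the NK list 0 or 1 of 5. Of the 2 CD8 T-cell genes, *Cd8a* averaged between 4.12 and 4.73 and *Cd8b1* between 7.40 and 8.08. The platelet list had 4 of 6 genes above the median of all clusters in each group, and it also moved between groups. Its summed linear signal over 6 genes was 343 to 361 on Torin 1 arrays, 327 to 372 on PP242 arrays, 275 to 285 on DMSO arrays and 399 to 423 on unstimulated arrays. Of its genes, *Pf4* and *Ppbp* averaged no more than 4.17 in any group. *Itgb3* averaged between 6.4 and 7.4, *Itga2b* between 5.8 and 6.5, *Gp9* between 6.2 and 6.5 and *Treml1* between 5.2 and 5.5. In that list 3 genes were called lower in DMSO than in unstimulated cells, beside 12.1% of all genes. With Torin 1 and PP242, 1 and 2 were called higher than with DMSO, beside 3.33% and 7.38% of all genes. The part of these signals in the results below was not tested.

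Activation with vehicle went with higher expression of 5 of the 9 genes, *Idh3a*, *Fh1*, *Mdh2*, *Suclg1* and *Idh3b*, and with lower expression of none. Of all genes tested, 11.8% were called higher and 12.1% lower in the same comparison. The median difference was 0.37 over the 9 members and -0.04 over all genes. On 7 of the 9 genes, *Cs* and *Sucla2* in addition to the 5 called, every DMSO array exceeded every unstimulated array, a separation that 17.4% of all genes showed. In bulk RNA, a change in the number of cells that express a gene and a change in RNA per cell cannot be told apart.

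Cells activated with Torin 1 expressed 4 of the 9 genes at a lower level than cells activated with DMSO, and none at a higher level (background 3.33%). The 4 genes were *Idh3a*, *Fh1*, *Mdh2* and *Suclg1*, and the background share of genes called lower was 4.79%. With PP242 the genes called lower were *Idh3a*, *Fh1*, *Mdh2* and *Suclg1*, against a background of 9.27% called lower and 7.38% called higher. The 2 inhibitor comparisons share the 3 DMSO arrays, which also enter the comparison with unstimulated cells, so that the 3 sets of calls are not independent. The median difference over the 9 members was -0.40 with Torin 1 and -0.38 with PP242, and over all genes it was 0.01 in both comparisons. All 3 Torin 1 arrays lay below all 3 DMSO arrays on 7 members (background 12.3%), and all 3 PP242 arrays did on 6 members (background 15.3%).

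**Figure D1:**
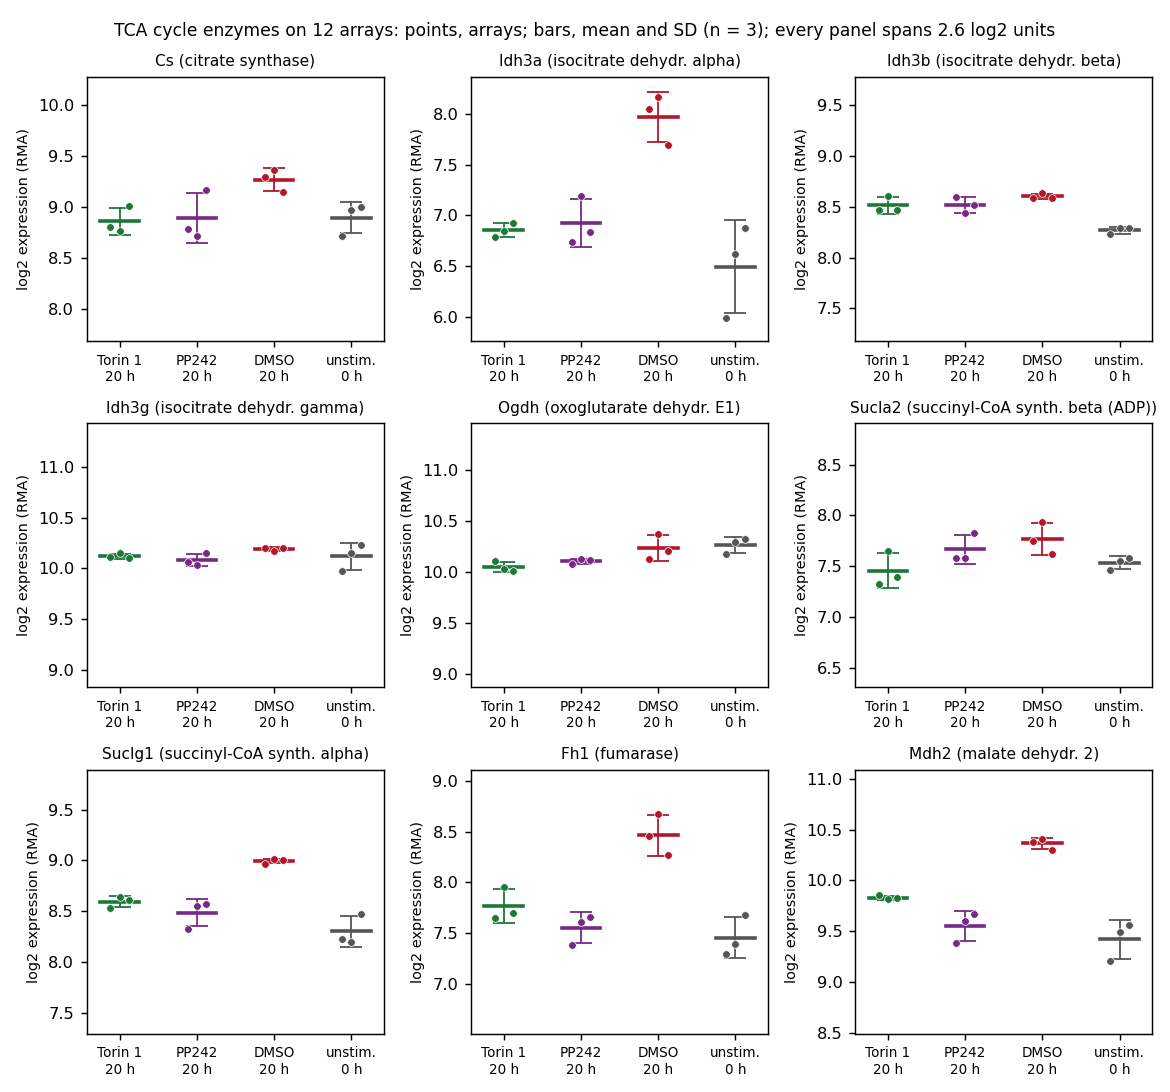
Log2 expression (RMA) of the 9 TCA cycle genes on 12 arrays, with 1 panel per gene; points are arrays, the thick bar is the group mean and the thin bars are the SD (n = 3). Every panel spans the same number of log2 units. The DMSO arrays stand above all other arrays for *Idh3a*, *Suclg1*, *Fh1* and *Mdh2*, while *Idh3g* and *Ogdh* stay within a narrow band.

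*Cs* encodes citrate synthase, which joins acetyl-CoA to oxaloacetate at the entry of the cycle. *Cs* measured 8.80, 8.76 and 9.01 on Torin 1 arrays, 8.79, 8.71 and 9.17 on PP242 arrays, 9.30, 9.36 and 9.15 on DMSO arrays and 8.72, 8.97 and 8.997 on unstimulated arrays. The DMSO arrays were the highest apart from the third PP242 array, which stood just above the lowest DMSO array. The difference of DMSO from unstimulated cells was 0.37 ± 0.13 (SE, adjusted p = 0.0567), that of Torin 1 from DMSO was -0.41 (adjusted p = 0.0788) and that of PP242 from DMSO was -0.38 (adjusted p = 0.069), none past the threshold. *Cs* was called when the third PP242 array was left out, and also under several other settings with that array kept. Without it the adjusted p was 0.0296 for DMSO against unstimulated cells, 0.0423 for Torin 1 against DMSO and 0.0142 for PP242 against DMSO, where the difference was -0.52.

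Isocitrate dehydrogenase 3 is the NAD-dependent enzyme that makes oxoglutarate from isocitrate, a step controlled by the energy state of the cell. It is built of a catalytic alpha subunit (*Idh3a*) and of beta (*Idh3b*) and gamma (*Idh3g*) subunits, the gamma subunit being regulatory. *Idh3a* measured 6.79, 6.84 and 6.93 on Torin 1 arrays, 6.74, 7.19 and 6.84 on PP242 arrays, 8.05, 8.16 and 7.70 on DMSO arrays and 5.99, 6.63 and 6.88 on unstimulated arrays. The lowest DMSO array stood above every other array, and the 3 unstimulated arrays spread more widely (SD 0.459) than the Torin 1 arrays (SD 0.0704). *Idh3a* had the largest differences of the 9 genes: 2.78-fold higher with DMSO than in unstimulated cells (1.47 ± 0.20 on the log2 scale, SE, adjusted p = 7.95e-05), 2.16-fold lower with Torin 1 than with DMSO (adjusted p = 0.00334) and 2.06-fold lower with PP242 than with DMSO (adjusted p = 0.00212).

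The partner subunits differed far less. *Idh3b* measured 8.47, 8.61 and 8.46 on Torin 1 arrays, 8.60, 8.44 and 8.52 on PP242 arrays, 8.59, 8.63 and 8.58 on DMSO arrays and 8.23, 8.29 and 8.29 on unstimulated arrays. The 9 arrays of activated cells all lay above the 3 unstimulated arrays, and the inhibitor arrays overlapped the DMSO arrays. *Idh3b* was 1.26-fold higher with DMSO than in unstimulated cells (0.33 ± 0.09, SE, adjusted p = 0.0151), and its differences with Torin 1 (-0.09) and PP242 (-0.08) from DMSO did not pass the test. *Idh3g* measured 10.11, 10.15 and 10.10 on Torin 1 arrays, 10.06, 10.04 and 10.15 on PP242 arrays, 10.20, 10.17 and 10.20 on DMSO arrays and 9.97, 10.15 and 10.23 on unstimulated arrays. Both sets of inhibitor arrays lay just below the DMSO arrays, with differences of -0.07 for Torin 1 and -0.11 for PP242, and the unstimulated arrays spanned both (DMSO against unstimulated cells 0.07, adjusted p = 0.654).

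The promoters of these partner subunits are shown because the genes encode parts of 1 enzyme and had unequal responses; no window for *Idh3a* was used here. The sequences are RefSeq's for GRCm38.p6, 250 bases before to 50 bases after the gene start, 5′ to 3′ on the gene's strand. Capitals mark a match, on either strand, to a short motif: CCGGAAG for ETS factors such as GABPA, or AAGATGG for YY1. *Idh3b* lies on the minus strand at chr2:130284402-130284701 and *Idh3g* on the minus strand at chrX:73786848-73787147.
Idh3b: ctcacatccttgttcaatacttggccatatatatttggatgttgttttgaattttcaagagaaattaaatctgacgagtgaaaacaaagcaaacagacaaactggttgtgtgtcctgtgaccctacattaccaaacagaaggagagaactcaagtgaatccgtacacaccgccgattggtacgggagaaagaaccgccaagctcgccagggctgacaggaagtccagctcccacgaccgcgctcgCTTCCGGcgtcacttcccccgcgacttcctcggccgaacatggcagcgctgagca
Idh3g: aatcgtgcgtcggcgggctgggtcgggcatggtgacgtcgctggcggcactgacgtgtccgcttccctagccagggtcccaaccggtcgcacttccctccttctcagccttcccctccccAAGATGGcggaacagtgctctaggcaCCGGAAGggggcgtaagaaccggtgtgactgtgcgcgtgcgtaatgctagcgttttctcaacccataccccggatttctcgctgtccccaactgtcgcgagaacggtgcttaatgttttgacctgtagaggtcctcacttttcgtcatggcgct
The ETS motif was present in both windows, across the gene start in *Idh3b* and upstream of it in *Idh3g*, and is held by 8.86% of 32851 RefSeq promoter windows. The YY1 motif, held by 6.34% of windows, was present in *Idh3g*. These matches are letters in a window, and no binding was measured.

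The balance of *Idh3a* against its partners was followed within each array, as *Idh3a* minus the mean of *Idh3b* and *Idh3g*, relative to the unstimulated mean. This difference was 0.20, 0.17 and 0.35 on Torin 1 arrays, 0.11, 0.66 and 0.21 on PP242 arrays, 1.36, 1.46 and 1.00 on DMSO arrays and -0.42, 0.10 and 0.31 on unstimulated arrays. The DMSO arrays stood apart from all others, and the other 3 groups overlapped. The balance was 1.27 higher with DMSO than in unstimulated cells, and it was lower than with DMSO by 1.03 with Torin 1 and by 0.95 with PP242. The 4 groups differed in an exact permutation test over the 369600 ways to assign the arrays (p = 0.00909, adjusted over 2 balances p = 0.0105). Between 2 groups of 3 arrays, an exact test of a single value could not pass, and none is given.

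**Figure D2:**
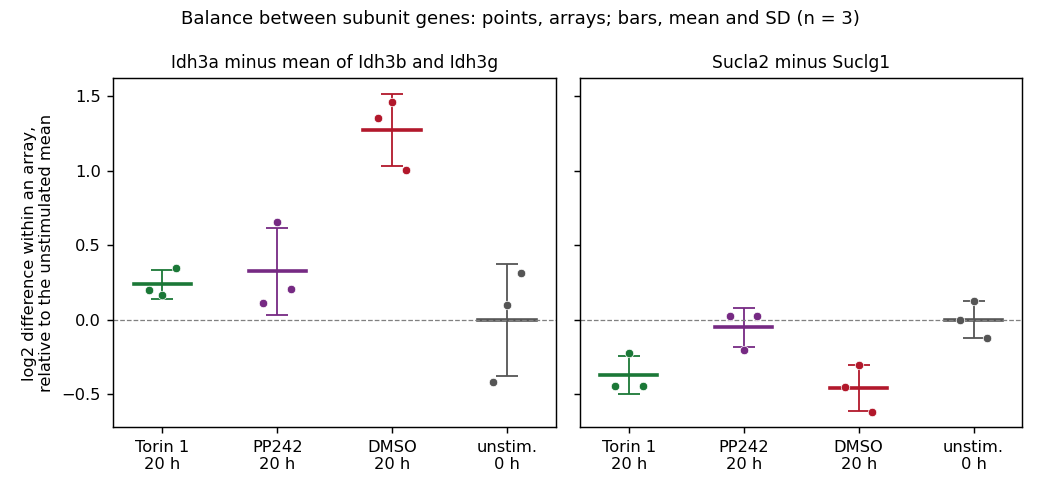
Balance between subunit genes of 1 enzyme on each array, in log2 units relative to the unstimulated mean (dashed line at 0); points are arrays, bars are mean and SD (n = 3). Left, *Idh3a* minus the mean of *Idh3b* and *Idh3g*: the 3 DMSO arrays lie between 1.00 and 1.46, above all others. Right, *Sucla2* minus *Suclg1*: Torin 1 and DMSO arrays lie below 0.

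*Ogdh* encodes the E1 component of the oxoglutarate dehydrogenase complex, which forms succinyl-CoA. *Ogdh* measured 10.10, 10.02 and 10.01 on Torin 1 arrays, 10.07, 10.12 and 10.11 on PP242 arrays, 10.13, 10.37 and 10.20 on DMSO arrays and 10.17, 10.29 and 10.33 on unstimulated arrays. All inhibitor arrays lay below the DMSO arrays, by a margin at its narrowest smaller than the spread within any group, and the DMSO and unstimulated arrays overlapped. No difference passed the test: -0.03 for DMSO against unstimulated cells (0.04 after each array was centred on its median), -0.19 for Torin 1 against DMSO (adjusted p = 0.288) and -0.13 for PP242 against DMSO (adjusted p = 0.424). The 95% interval of the DMSO against unstimulated difference ran between -0.24 and 0.17.

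Succinyl-CoA synthetase makes succinate and, in the same step, ATP or GTP. *Suclg1* encodes the alpha subunit that both forms of the enzyme share, and *Sucla2* the beta subunit of the ATP-forming enzyme. *Suclg1* measured 8.53, 8.64 and 8.61 on Torin 1 arrays, 8.33, 8.56 and 8.57 on PP242 arrays, 8.97, 9.01 and 9.01 on DMSO arrays and 8.23, 8.20 and 8.48 on unstimulated arrays. The DMSO arrays were the highest, and the Torin 1 arrays lay between them and the unstimulated arrays without overlap. *Suclg1* was 1.62-fold higher with DMSO than in unstimulated cells (0.69 ± 0.11, SE, adjusted p = 0.000231), 1.32-fold lower with Torin 1 than with DMSO (adjusted p = 0.0309) and 1.42-fold lower with PP242 than with DMSO (adjusted p = 0.00395). The Torin 1 call was lost without any one of the DMSO arrays (adjusted p = 0.065, 0.0834 and 0.0754 without replicates 1, 2 and 3) or any one of the Torin 1 arrays (0.108, 0.0595 and 0.0713).

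*Sucla2* measured 7.32, 7.65 and 7.39 on Torin 1 arrays, 7.59, 7.59 and 7.83 on PP242 arrays, 7.75, 7.94 and 7.62 on DMSO arrays and 7.46, 7.56 and 7.59 on unstimulated arrays. The DMSO arrays lay above the unstimulated arrays and overlapped both inhibitor groups. *Sucla2* did not pass the test in any comparison: its difference was 0.24 for DMSO against unstimulated cells (adjusted p = 0.18), -0.32 for Torin 1 against DMSO (adjusted p = 0.137) and -0.10 for PP242 against DMSO (adjusted p = 0.642). Its value was identical on 3 arrays, as the values of 14.8% of all genes were on at least 2 arrays. *Sucla2* minus *Suclg1*, relative to the unstimulated mean, was -0.44, -0.22 and -0.45 on Torin 1 arrays, 0.02, -0.20 and 0.02 on PP242 arrays, -0.45, -0.30 and -0.62 on DMSO arrays and -0.00, 0.13 and -0.12 on unstimulated arrays. The Torin 1 and DMSO arrays were the lowest and overlapped each other, while the PP242 arrays overlapped the unstimulated arrays. The 4 groups differed in the exact permutation test (p = 0.0105, adjusted over 2 balances p = 0.0105), with a difference of -0.46 for DMSO from unstimulated cells, and with the balance 0.09 higher with Torin 1 than with DMSO and 0.41 higher with PP242 than with DMSO.

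*Fh1* encodes fumarase, which hydrates fumarate to malate, and *Mdh2* encodes mitochondrial malate dehydrogenase, which returns malate to oxaloacetate and also serves the malate-aspartate shuttle that carries NADH electrons into mitochondria. *Fh1* measured 7.65, 7.96 and 7.70 on Torin 1 arrays, 7.38, 7.62 and 7.66 on PP242 arrays, 8.45, 8.67 and 8.27 on DMSO arrays and 7.30, 7.39 and 7.68 on unstimulated arrays. The DMSO arrays were the highest, and the other 3 groups overlapped. *Fh1* was 2.01-fold higher with DMSO than in unstimulated cells (1.01 ± 0.14, SE, adjusted p = 0.000103), 1.62-fold lower with Torin 1 than with DMSO (adjusted p = 0.00672) and 1.88-fold lower with PP242 than with DMSO (adjusted p = 0.000447). *Mdh2* measured 9.85, 9.81 and 9.82 on Torin 1 arrays, 9.38, 9.60 and 9.67 on PP242 arrays, 10.38, 10.41 and 10.30 on DMSO arrays and 9.20, 9.49 and 9.56 on unstimulated arrays. The DMSO arrays again stood above all others, the Torin 1 arrays lay above the PP242 and unstimulated arrays, and those last groups overlapped. *Mdh2* was 1.93-fold higher with DMSO than in unstimulated cells (0.95 ± 0.11, SE, adjusted p = 3.09e-05), 1.45-fold lower with Torin 1 than with DMSO (adjusted p = 0.00957) and 1.76-fold lower with PP242 than with DMSO (adjusted p = 0.000229).

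The promoters of *Fh1* and *Mdh2* are shown because these 2 members had the most similar profiles over the 4 groups (root mean square difference of centred group means 0.06). They are RefSeq's 300-base windows of GRCm38.p6 as above, with *Fh1* on the minus strand at chr1:175625586-175625885 and *Mdh2* on the plus strand at chr5:135778399-135778698. No capitals appear because neither window held a match to the motifs searched on both strands.
Fh1: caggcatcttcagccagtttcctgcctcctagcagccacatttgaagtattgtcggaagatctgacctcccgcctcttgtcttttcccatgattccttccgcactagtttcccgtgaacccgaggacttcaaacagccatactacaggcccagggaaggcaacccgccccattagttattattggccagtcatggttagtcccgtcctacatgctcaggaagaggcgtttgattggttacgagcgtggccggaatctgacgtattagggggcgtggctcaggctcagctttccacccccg
Mdh2: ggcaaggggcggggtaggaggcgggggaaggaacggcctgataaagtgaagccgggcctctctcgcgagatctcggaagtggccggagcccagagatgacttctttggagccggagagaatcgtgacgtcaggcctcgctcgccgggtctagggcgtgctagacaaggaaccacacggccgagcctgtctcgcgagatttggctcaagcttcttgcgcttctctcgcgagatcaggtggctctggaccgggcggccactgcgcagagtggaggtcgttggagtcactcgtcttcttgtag
The motifs were GCGCA, any base and then GCGC for NRF1, CCGGAAG for ETS factors, AAGATGG for YY1, the E-box CACGTG bound by MYC, and TCAAGGTCA for ERRalpha, held by 4.6%, 8.86%, 6.34%, 7.15% and 0.423% of the 32851 windows. Of the 8 members with a window, *Cs* and *Suclg1* also held none, *Sucla2* held the NRF1 motif and *Ogdh* held the E-box in 3 of its 6 windows. Of these 3 *Ogdh* windows, 2 overlap and share the same E-box.

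**Figure D3:**
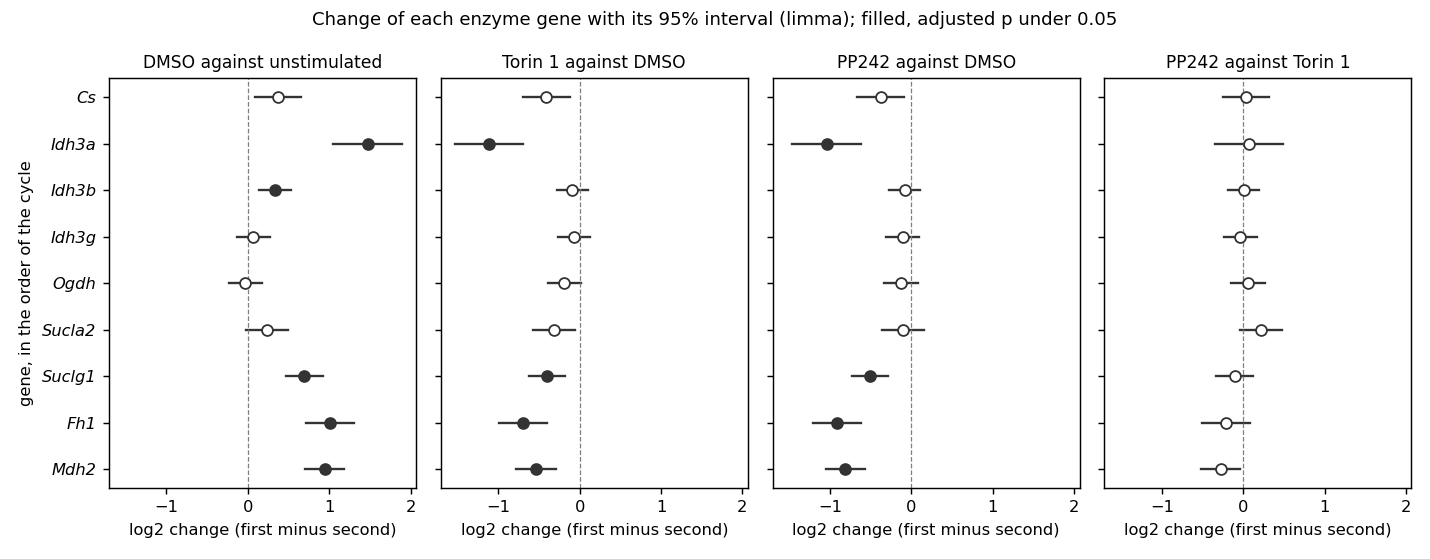
Log2 difference of each gene between 2 groups (first minus second, named above each panel) with its 95% interval from limma; genes run in the order of the cycle and filled points have an adjusted p below 0.05. The filled points are *Idh3a*, *Idh3b*, *Suclg1*, *Fh1* and *Mdh2* for DMSO against unstimulated cells, 4 of these without *Idh3b* for each inhibitor against DMSO, and none for PP242 against Torin 1.

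The inhibitors were given at different doses, so PP242 and Torin 1 cells were set side by side as treated. None of the 9 genes was called between them by limma, where 0.392% of all genes were. *Mdh2* alone had an unadjusted p below 0.05, with all 3 PP242 arrays below all 3 Torin 1 arrays, as in 9.1% of all genes (-0.28, 95% interval -0.52 to -0.04, adjusted p = 0.338). The difference was -0.21 for *Fh1* (interval -0.51 to 0.08), 0.21 for *Sucla2* (interval -0.04 to 0.47) and 0.07 for *Idh3a* (interval -0.35 to 0.49). These intervals leave room for differences in either direction for *Fh1*, *Sucla2* and *Idh3a*, and the test does not show that the compounds act alike.

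Activated cells with an inhibitor were also set against unstimulated cells. With Torin 1, *Mdh2* was the only member called, 1.33-fold higher than in unstimulated cells (0.41 ± 0.11, SE, adjusted p = 0.039), where 4.42% of all genes were called higher and 3.31% lower. Without single arrays, the *Mdh2* adjusted p was 0.0965, 0.0892 and 0.0935 (Torin 1 replicates 1, 2 and 3), 0.0504 (DMSO replicate 1), 0.153 (unstimulated replicate 1) and 0.0694 (unstimulated replicate 2). *Idh3a* differed by 0.36 (adjusted p = 0.312), *Fh1* by 0.31 (adjusted p = 0.208), *Suclg1* by 0.29 (adjusted p = 0.112) and *Idh3b* by 0.24 (adjusted p = 0.123). The unadjusted p in limma was 0.0148 for *Suclg1*, 0.017 for *Idh3b* and 0.042 for *Fh1*. All Torin 1 arrays lay above all unstimulated arrays for *Suclg1* and *Idh3b*, as in 2788 of 22180 genes. *Ogdh* went the other way, at -0.22 (adjusted p = 0.195, unadjusted p = 0.0378 in limma), with all Torin 1 arrays below all unstimulated arrays (background 15.3%). *Cs* (-0.04), *Idh3g* (-0.00) and *Sucla2* (-0.08) lay nearer 0. With PP242 no member was called against unstimulated cells, against a background of 3.07% in either direction. *Idh3a* (0.43, adjusted p = 0.351) and *Idh3b* (0.25, adjusted p = 0.208) had an unadjusted p below 0.05, and *Mdh2* differed by 0.13 (adjusted p = 0.703). For *Idh3b*, all PP242 arrays lay above all unstimulated arrays, as in 1774 of 22180 genes. *Ogdh* differed by -0.16 (adjusted p = 0.513), with all PP242 arrays below all unstimulated arrays (background 10.8%).

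Genes with the most similar profile were sought by the root mean square difference of the 4 centred group means, over the genes tested. Genes named as predicted genes, clones, microRNAs, small nucleolar RNAs or ribosomal RNAs were passed over. The nearest gene was *Nup37* for *Idh3a* (0.05), *Usp1* for *Suclg1* (0.01), *Mrpl16* for *Fh1* (0.01) and *Kpna2* for *Mdh2* (0.01). *Nup37* encodes a nucleoporin, *Usp1* a deubiquitinase, *Mrpl16* a mitochondrial ribosomal protein and *Kpna2* an importin alpha. Of the members with smaller differences, *Cs* lay nearest to *Prxl2b*, *Idh3b* to *Esp16*, *Idh3g* to *Trim29*, *Ogdh* to *Mfap4* and *Sucla2* to *Mrpl27*. Group means were between 2.3 and 2.6 for *Esp16*, 3.6 and 3.8 for *Mfap4*, and 4.6 and 4.7 for *Trim29*. These lie below the median of every array, so nearness of profile does not mean a similar level of expression. Among members, *Fh1* and *Mdh2* were nearest to each other, *Idh3a* was nearest to *Fh1* (0.19) and *Suclg1* to *Mdh2* (0.12), while *Ogdh* and *Idh3g*, neither of them called, were nearest to each other (0.08). *Mdh2* held rank 50 among the genes not passed over by nearness to *Fh1*, so that many other genes had such a profile over the 4 groups.

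The rest of the cycle comprises succinate dehydrogenase and the remaining dehydrogenase and ligase subunits, of which 7 of 8 listed genes were measured. With DMSO 3 were called higher than in unstimulated cells and none lower, beside 11.8% and 12.1% of all genes. The genes called lower than with DMSO were 3 with Torin 1 and 5 with PP242, beside 4.79% and 9.27% of all genes. None was called higher, beside 3.33% of all genes with Torin 1 and 7.38% with PP242. *Sdhd*, a membrane anchor of succinate dehydrogenase, differed by 0.66 with DMSO from unstimulated cells (adjusted p = 0.00155), and by -0.58 with Torin 1 (adjusted p = 0.0126) and -0.79 with PP242 (adjusted p = 0.000692) from DMSO. *Sdhb*, its iron-sulfur subunit, gave 0.52, -0.55 and -0.52 in the same order of comparisons, all called. *Sdhc*, the other anchor, gave 0.40 and -0.44 for DMSO against unstimulated cells and PP242 against DMSO, both called, and -0.27 for Torin 1 (adjusted p = 0.138). *Sdha*, the flavoprotein subunit, was not called in any of the 3 (-0.07, 0.03 and 0.03). *Dld*, the E3 component that completes the complex of *Ogdh*, was lower than with DMSO by -0.34 with Torin 1 and by -0.34 with PP242, and *Dlst*, its E2 component, by -0.40 with PP242 (adjusted p = 0.0211). The median over the 7 genes was 0.25, -0.27 and -0.44 in the 3 comparisons, against -0.04, 0.01 and 0.01 over all genes.

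Genes of pyruvate entry, which import pyruvate and convert it to acetyl-CoA or regulate that step, included calls in both directions. Of 12 measured, 3 were higher and 1 lower with DMSO than in unstimulated cells, 1 higher and 4 lower with Torin 1 than with DMSO, and 3 higher and 4 lower with PP242 than with DMSO. Of all genes, 11.8% were called higher and 12.1% lower on activation, 3.33% and 4.79% with Torin 1, and 7.38% and 9.27% with PP242. *Mpc1*, a subunit of the mitochondrial pyruvate carrier, was 0.73 higher with DMSO than in unstimulated cells (adjusted p = 0.00981), and differed from DMSO by -0.83 with Torin 1 (adjusted p = 0.014) and by -1.31 with PP242 (adjusted p = 0.000271). *Pdk3*, a kinase that switches pyruvate dehydrogenase off, gave 0.95, -0.58 and -0.82, all called. *Pdpr*, which regulates the phosphatase that switches it on, went the other way, at -0.67, 0.41 and 0.56, and was the only gene of the list called lower on activation and the only one called higher with Torin 1. The other kinase and phosphatase genes did not all share these directions. The kinase gene *Pdk1* gave -0.46, 0.14 and 0.59, and the phosphatase gene *Pdp1* gave -0.38, 0.28 and 0.51, with only the PP242 difference called for each. The phosphatase gene *Pdp2* moved as *Pdk3* did, at 0.41, -0.47 and -0.54, all called. The kinase genes *Pdk2* and *Pdk4* were not called in any of the 3 comparisons.

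Cytosolic or NADP-dependent counterparts of the cycle enzymes were listed together with the acetyl-CoA synthetases, and all 7 genes were measured. With DMSO 2 were called higher and 3 lower than in unstimulated cells, beside 11.8% and 12.1% of all genes. The lower genes were *Idh1*, the cytosolic NADP-dependent isocitrate dehydrogenase (-1.05, adjusted p = 0.00127), and the acetyl-CoA synthetases *Acss1* (-0.85) and *Acss2* (-0.73). *Mdh1*, the cytosolic malate dehydrogenase, followed the direction of *Mdh2*: it was 0.46 higher with DMSO than in unstimulated cells (adjusted p = 0.00754) and was the only gene of its list called lower than with DMSO, by -0.46 with Torin 1 (adjusted p = 0.0209) and -0.67 with PP242 (adjusted p = 0.000878). *Acss1* was the only one called higher with PP242 than with DMSO (0.86, adjusted p = 0.00102), and none was called higher with Torin 1. Of all genes, 4.79% were called lower and 3.33% higher with Torin 1, and 9.27% and 7.38% with PP242. The median of this list was 0.02 for DMSO against unstimulated cells, beside -0.04 over all genes. Against DMSO it was -0.20 with Torin 1 and -0.30 with PP242, beside 0.01 over all genes in both comparisons. The 4 listed paralogues of members, *Csl*, *Ogdhl*, *Dhtkd1* and *Mdh1b*, were not called by limma in any of the 3 comparisons, and *Dhtkd1* with PP242 against DMSO was the only one with an unadjusted p below 0.05 (0.21, adjusted p = 0.153). All 4 had means below the median of all clusters in every group.

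Of 16 measured genes whose products fill or drain the cycle, 3 were higher with DMSO than in unstimulated cells and none lower, beside 11.8% and 12.1% of all genes. Of these *Oxct1*, which activates ketone bodies for entry, gave 1.04, *Got2*, the mitochondrial aspartate aminotransferase, gave 0.97, and *Got1*, its cytosolic counterpart, gave 0.68. With Torin 1, *Oxct1* (-0.91) and *Got2* (-0.69) were called lower than with DMSO, and *Got1* was not (-0.46, adjusted p = 0.0664); of all genes 4.79% were called lower. With PP242 all 3 were called lower than with DMSO, at -1.03, -0.98 and -0.51, beside 9.27% of all genes. The median of the list was -0.01 on activation, so that the list as a whole did not share the direction of these 3. Against DMSO its median was -0.16 with Torin 1 and -0.16 with PP242, beside 0.01 over all genes in both comparisons.

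**Figure D4:**
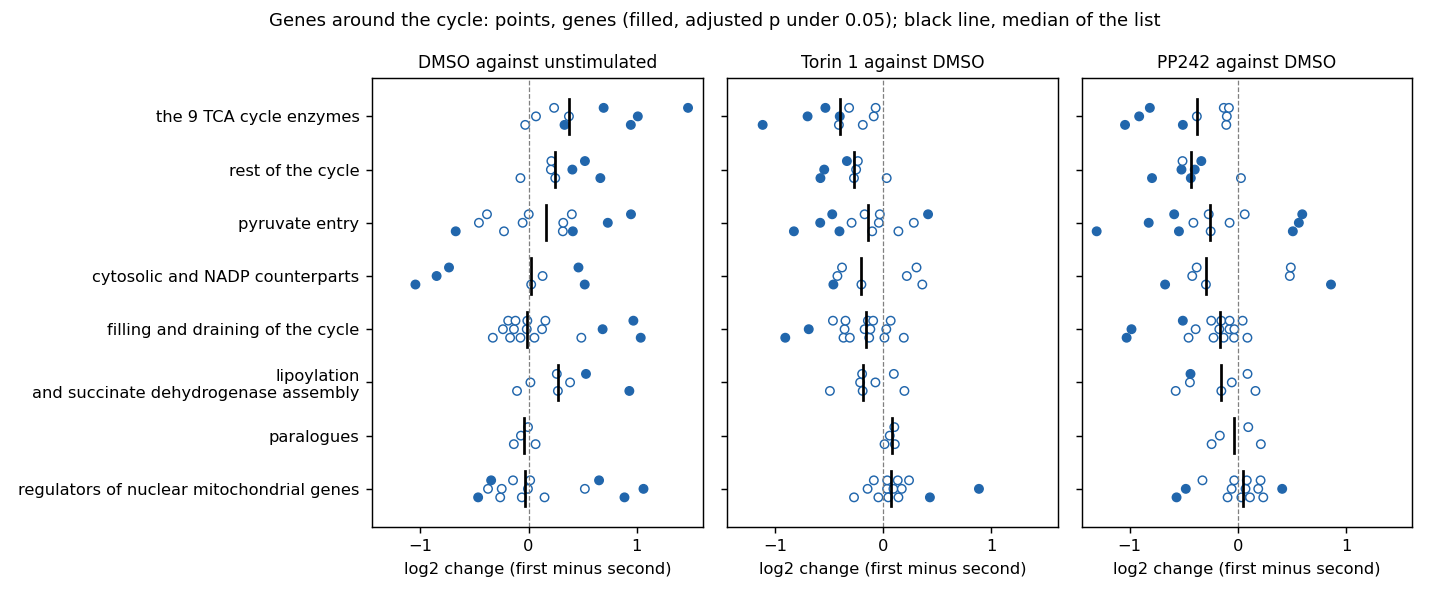
Log2 difference of each measured gene (first group minus second, named above each panel) for the 9 members, in the top row, and 7 lists of genes around the cycle; filled points have an adjusted p below 0.05 and black lines are list medians. Some rows have medians above 0 for DMSO against unstimulated cells and below 0 for both inhibitors against DMSO. These are the members, the rest of the cycle, pyruvate entry, the cytosolic and NADP counterparts, and lipoylation and succinate dehydrogenase assembly. For the counterparts the median is only 0.02 for DMSO against unstimulated cells. The regulators have medians between -0.03 and 0.07.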

How the data were processed

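The deposited values are log2 expression of 41345 transcript clusters on 12 Affymetrix arrays. Per the labels, the authors amplified 500 pg of total RNA with the WT Pico protocol and processed the arrays by RMA, which corrects background, normalizes by quantiles and summarises probes, in Partek (6.6 in the submitters' processing notes). Clusters paired with 1 gene symbol by the platform annotation were kept (23521, with 1820 holding several symbols and 16004 none), and for each of 22180 genes the cluster of highest mean was used. Symbols came from that annotation, and 23328 of the clusters' gene IDs matched the RefSeq table of GRCm38.p6. No 2 arrays were identical, and arrays correlated between 0.964 and 0.987.

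All groups were fitted together with limma 3.58.1 (R 4.3.3) with empirical Bayes and no covariate, and p-values were adjusted by Benjamini-Hochberg over all genes. Groups were taken from the sample titles. Subunit balances were tested by an exact permutation test, one-sided in the F statistic, which grows with group differences in either direction. The number of arrays limits the precision. The fit was tested on simulated data. Members and lists were chosen with earlier results of these data known. Beyond members and nearest genes, the genes named from each list were up to 3 called with the largest absolute difference in the comparisons with DMSO arrays, and any gene alone in its direction. *Sdha*, *Dld*, *Dlst*, *Pdk1*, *Pdk2*, *Pdk4*, *Pdp1* and *Pdp2* were added after their values were seen. Alternatives were quantile normalization, centring on array medians, a filter on dim genes, the median over a gene's clusters, all clusters, trend and robust or no empirical Bayes, array weights, fits of 2 groups, stricter thresholds, a replicate block and leaving out each array.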

Additional observations from a re-analysis of the deposited data

How the results depend on the processing

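Over 24 alternatives for each of the 54 member differences, 1227 of 1296 values kept their direction and side of the threshold, 24 lost and 15 gained a call, and 30 turned direction, all of them uncalled and at most 0.1091 in size. Some of this agreement was fixed in advance. The stricter thresholds reused the main fit, so that no direction could turn and no call could be gained under them. The median over clusters left every member difference unchanged, since each member had 1 cluster. *Idh3a*, *Fh1* and *Mdh2* kept their calls against DMSO with both inhibitors, except *Mdh2* with Torin 1 where a change of 1.5-fold was also required. Cs, DMSO against unstimulated, became a call under quantile normalization (adjusted p = 0.0292), centring (0.034), the dim filter (0.0352), trend and robust fitting (0.0257) and a fit of 2 groups (0.0486). Cs was also called for Torin 1 against DMSO under the dim filter (0.0455) and trend and robust fitting (0.0315), and for PP242 against DMSO under these (0.0411 and 0.03) and quantile normalization (0.0392). Suclg1, Torin 1 against DMSO, was not called over all clusters (0.0608). Requiring 1.5-fold left 2 of the 4 members called lower with Torin 1 than with DMSO. The count for Torin 1 against unstimulated cells was 0 with all clusters, with a fit of 2 groups, at 0.01 and at 1.5-fold. Without empirical Bayes 1 member was called for PP242 against unstimulated cells, *Idh3b*, and the 1 for Torin 1 against unstimulated cells was *Idh3b* in place of *Mdh2*.

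With each array left out, members called numbered 5 to 6 for DMSO against unstimulated cells, 3 to 5 for Torin 1 against DMSO, 4 to 5 for PP242 against DMSO, 0 for PP242 against Torin 1, 0 to 1 for Torin 1 against unstimulated cells and 0 for PP242 against unstimulated cells. The balance tests stayed below 0.05 under every alternative run, with exact p between 0.00279 and 0.0179 for *Idh3a* and between 0.00721 and 0.0262 for *Sucla2*. Centring and the median over clusters could not change these tests, since each balance is a within-array difference of members with 1 cluster each.

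Quantile normalization turned the direction of Idh3b, PP242 against Torin 1 (-0.0239), Cs, Torin 1 against unstimulated (0.00227), Idh3g, Torin 1 against unstimulated (0.0414) and Cs, PP242 against unstimulated (0.00408). Centring turned Ogdh, DMSO against unstimulated (0.0434), Idh3b, PP242 against Torin 1 (-0.0224), Cs, Torin 1 against unstimulated (0.0109), Idh3g, Torin 1 against unstimulated (0.046) and Cs, PP242 against unstimulated (0.0141). Leaving out an array gave ranges across 0 for Idh3g, DMSO against unstimulated (-0.0041 to 0.12), Ogdh, DMSO against unstimulated (-0.0997 to 0.0228), Cs, PP242 against Torin 1 (-0.11 to 0.12), Idh3a, PP242 against Torin 1 (-0.063 to 0.163), Idh3b, PP242 against Torin 1 (-0.0353 to 0.0518), Cs, Torin 1 against unstimulated (-0.126 to 0.0138), Idh3g, Torin 1 against unstimulated (-0.0742 to 0.0547), Cs, PP242 against unstimulated (-0.146 to 0.0814) and Idh3g, PP242 against unstimulated (-0.112 to 0.0172). The causes of these changes were not tested.

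Arrays of the same replicate number did not deviate together (r between -0.07 and 0.06 over 18 pairs), so the numbers were not taken to pair the samples, although 7 of 12 arrays correlated best with an array of their own number. With the replicate block the counts were 5, 4 and 4 members for DMSO against unstimulated, Torin 1 against DMSO and PP242 against DMSO, and 0, 1 and 0 for the others. With 3 arrays a group, *Cs* and *Suclg1*, with differences near 0.4 from DMSO with Torin 1, stood on either side of the threshold.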

Other observations

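Of 7 measured genes for lipoylation and succinate dehydrogenase assembly, 2 were higher with DMSO than in unstimulated cells, *Lipt1* (0.93, adjusted p = 0.00402), a lipoyl transferase, and *Sdhaf4* (0.53, adjusted p = 0.0413), an assembly factor. In the same comparison 11.8% of all genes were called higher. The medians of this list had the signs of the members' medians, at 0.27 for DMSO against unstimulated cells, -0.19 for Torin 1 against DMSO and -0.15 for PP242 against DMSO. None was called between Torin 1 and DMSO by limma, where 1 had an unadjusted p below 0.05, and *Lipt2*, which attaches the octanoyl precursor of lipoate, was the only one called between PP242 and DMSO (-0.44, adjusted p = 0.0446). Of all genes, 4.79% were called lower than with DMSO with Torin 1 and 9.27% with PP242. *Lipt1* differed from DMSO by -0.21 with Torin 1 (adjusted p = 0.63) and by -0.58 with PP242 (adjusted p = 0.0738).

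Of 14 measured regulators of nuclear genes for mitochondrial proteins, 3 were higher and 2 lower with DMSO than in unstimulated cells, shares not far from the 11.8% and 12.1% of all genes. *Pprc1*, a coactivator of the PGC-1 family, gave 1.06 (adjusted p = 3.96e-06) and *Myc* gave 0.89 (adjusted p = 3.19e-05). With PP242 both were lower than with DMSO, by -0.57 and -0.48, and with Torin 1 neither was called (-0.27, adjusted p = 0.126, and -0.09, adjusted p = 0.725). Between PP242 and Torin 1 no gene of the list was called by limma (0.392% of all genes were) and 4 had an unadjusted p below 0.05. *Pprc1* (-0.30, unadjusted p = 0.0103, adjusted p = 0.242) and *Myc* (-0.39, unadjusted p = 0.0023, adjusted p = 0.136) were among them, with all PP242 arrays below all Torin 1 arrays, as in 9.1% of all genes. *Nrf1*, a transcription factor of genes for mitochondrial proteins, went against the enzymes, at -0.47 for DMSO against unstimulated cells, 0.43 for Torin 1 against DMSO and 0.41 for PP242 against DMSO, all called. *Tfb2m*, a mitochondrial transcription factor, was higher with Torin 1 than with DMSO (0.88, adjusted p = 0.046) and gave 0.23 with PP242 (adjusted p = 0.61).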
